A study of Mus musculus with 13 samples.

Results

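The genes described here are 47 mouse genes of DNA replication and S phase, listed by symbol. The rule uses no measured value, but the list was chosen with earlier results of these data known. The genes were found among 52636 genes in each library by Ensembl identifier. All 47 were matched, and all 47 passed the filter on low counts that left 17086 genes for testing. They were divided by role into origin licensing (10 genes), helicase activation (5), polymerases with clamp and single-strand binding factors (13), nucleotide supply (4), Okazaki fragment joining (2), chromatin and histone supply (5), repair and checkpoint (5) and G1/S control (3).

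RNA was sequenced from brain-resident myeloid cells sorted from cortex and hippocampus of PS2APP mice, an Alzheimer's disease model carrying mutant human presenilin 2 and amyloid precursor protein transgenes, at 14 to 15 months of age. The 7 PS2APP;Trem2wt mice (5 females, 2 males) were compared with 6 PS2APP;Trem2ko mice (5 females, 1 male), which the labels name PS2APP and PS2APP;Trem2KO, to ask how loss of the microglial receptor Trem2 alters gene expression in the presence of amyloid. The null allele, Trem2tm1(KOMP)Vlcg, came from a C57BL/6N background and was crossed into PS2APP on C57BL/6J. It is a germline allele, so Trem2 was lost in every cell type and not in microglia alone. Breeders were homozygous for PS2APP and heterozygous for the null allele, so the controls carried the transgenes too and both genotypes could come from the same litters. Cells were sorted live as CD11b+CD45+Ccr2-Ly6g-, which retains microglia and a small fraction of perivascular macrophages.

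Each library was 1 mouse. Total counts ran from 26120961 to 114857155 in PS2APP;Trem2wt mice and from 41567025 to 120569609 in PS2APP;Trem2ko mice, a 4.62-fold range. Trem2 itself lay between 818 and 1244 nRPKM (RPKM adjusted by a size factor) in PS2APP;Trem2wt mice and between 0.393 and 2.29 in PS2APP;Trem2ko mice, so each library matched its genotype. Microglial markers were abundant in every mouse, with P2ry12 between 1608 and 2280 nRPKM and Tmem119 between 1163 and 1668. Another such marker, Cx3cr1, fell by 0.49 on the log2 scale in PS2APP;Trem2ko mice (edgeR adjusted p = 0.0067). It was the 1 marker called of 8 listed for microglia. Of the 8, 5 were below 0 and 3 above, with a median log2 fold change of -0.072. Of 6 neutrophil marker genes, 5 were tested, and all 5 had a log2 fold change below 0 in PS2APP;Trem2ko mice. None passed an edgeR adjusted p of 0.05, and 2 had an unadjusted p within 0.05. Sums over the 6 genes were 14.9 to 265 nRPKM in PS2APP;Trem2wt mice and 0.143 to 46.3 in PS2APP;Trem2ko mice. Among them, the surface marker Ly6g was at most 0.137 nRPKM in every mouse.

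Before DNA is copied, the origin recognition complex, Cdc6 and Cdt1 load the ring-shaped MCM helicase onto origins. In S phase the helicase is activated by Cdc45, GINS and Mcm10, polymerases copy the strands behind it, and histone chaperones rebuild chromatin on the daughter strands. Microglia, the resident macrophages of the brain, divide slowly in the healthy adult and proliferate around amyloid plaques. Many replication genes are transcribed under E2F factors at the G1/S transition, while many mitosis genes carry a cell cycle homology region (CHR) bound by MuvB complexes.

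Promoters of 37 of the 47 members were present in the RefSeq table of 300-base promoters (GRCm38.p6, 250 bases before to 50 after the start). Atad2, Ccne2, Dscc1, Exo1, Gins1, Gins2, Gins4, Mcm4, Pole and Rfc2 had no entry and were not searched. Both strands were searched for TTTCCCGC, TTTCGCGC, TTTGCCGC and TTTGGCGC, which are E2F-type letters, and for the CHR letters TTTGAA. A promoter with several or overlapping matches was counted once. Such letters occurred in 13 of 37 members (35.1%), in 20 of 47 genes from a further replication list (42.6%), in 2 of 40 mitosis genes (5.0%) and in 2.6% of all 27025 promoters. The CHR letters occurred in 3 of 37 members (8.11%), in 29 of 40 mitosis genes (72.5%) and in 20.2% of all promoters. The following 4 promoters are shown because they carry E2F-type letters and belong to members, picked after their values were seen, that differ in fold change: Mcm5 and Clspn were at lower values in PS2APP;Trem2ko mice, Mcm6 less so, and Mcm3 was at almost equal values. Capitals mark the E2F-type letters, read 5' to 3' on the strand of the gene, at chr8:75109259-75109558 (plus strand) for Mcm5, chr1:128359656-128359955 (minus) for Mcm6, chr1:20820263-20820562 (minus) for Mcm3 and chr4:126556730-126557029 (plus) for Clspn.
Mcm5: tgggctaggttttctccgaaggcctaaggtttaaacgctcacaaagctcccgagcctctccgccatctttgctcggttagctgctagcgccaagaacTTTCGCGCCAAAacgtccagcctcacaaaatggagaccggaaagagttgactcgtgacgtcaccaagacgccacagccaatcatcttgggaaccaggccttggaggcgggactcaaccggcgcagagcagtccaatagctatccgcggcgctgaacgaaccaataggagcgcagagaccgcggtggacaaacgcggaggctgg
Mcm6: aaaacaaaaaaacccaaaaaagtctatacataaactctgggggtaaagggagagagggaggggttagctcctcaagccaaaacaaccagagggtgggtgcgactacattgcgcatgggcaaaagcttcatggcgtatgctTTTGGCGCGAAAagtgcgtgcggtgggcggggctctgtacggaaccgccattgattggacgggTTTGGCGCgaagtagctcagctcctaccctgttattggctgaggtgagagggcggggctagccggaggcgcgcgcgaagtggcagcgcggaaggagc
Mcm3: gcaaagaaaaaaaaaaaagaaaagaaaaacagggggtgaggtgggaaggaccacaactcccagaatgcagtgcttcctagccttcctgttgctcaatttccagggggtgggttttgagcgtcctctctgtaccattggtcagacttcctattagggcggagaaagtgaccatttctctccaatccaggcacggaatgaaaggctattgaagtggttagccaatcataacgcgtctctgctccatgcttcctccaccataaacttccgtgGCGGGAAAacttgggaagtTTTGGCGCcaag
Clspn: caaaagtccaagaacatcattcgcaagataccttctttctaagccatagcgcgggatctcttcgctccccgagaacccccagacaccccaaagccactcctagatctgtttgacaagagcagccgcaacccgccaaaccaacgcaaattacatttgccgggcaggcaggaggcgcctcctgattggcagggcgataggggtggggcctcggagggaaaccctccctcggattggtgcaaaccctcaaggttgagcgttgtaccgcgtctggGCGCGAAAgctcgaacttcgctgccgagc

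Mcm5 and Mcm6 each hold a pair of overlapping matches upstream of the start, and the matches of Mcm3 and Clspn lie downstream of it. A match is a description of letters and does not show that a factor binds. The 13 members with these letters had a median log2 fold change of -0.044, with 7 below 0. The 24 members whose promoters lacked them had a median of -0.14, with 19 below 0. The difference between these sets was not tested. Only exact letters within a short promoter window were searched, so a missing match does not show that no factor binds.

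The members were transcribed at low to moderate levels. Their means over the 13 mice ran from 0.0822 to 24.9 nRPKM with a median of 1.83, 17 of 47 lay below 1 nRPKM and 12 at or above 5. Levels differed widely within complexes whose subunits act together. Among the 6 subunits of the MCM helicase, Mcm3 was highest at 24.9 nRPKM and Mcm7 lowest at 1.83, a 13.6-fold difference per length. Among the GINS subunits, Gins4 at 15.7 exceeded Gins2 at 0.846 by 18.6-fold. Both low values are uncertain, since 23.3% of the 50-base words of Mcm7 and 65.4% of those of Gins2 also occur in other genes. The next lowest MCM subunit was Mcm5 at 4.26 nRPKM. For GINS it was Gins3, from the further replication list, at 2.20 nRPKM, and among the members Gins1 at 2.23. The clamp loader subunits were closer, from Rfc4 at 2.39 to Rfc2 at 8.07 nRPKM. Of the 50-base words of Rfc2 and Rfc4, 16.0% and 9.14% also occur in other genes, so this range is uncertain as well. The coefficient of variation among PS2APP;Trem2wt mice had a median of 18.1% over the members.

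Across the 47 members, the log2 fold change of PS2APP;Trem2ko over PS2APP;Trem2wt had a median of -0.11 and ran from -1.41 to 0.21, against a median of 0.0039 over all genes tested. The size of the members' median depended on single mice: it was -0.066 without PS2APP;Trem2ko replicate 4, -0.073 without PS2APP;Trem2wt replicate 1 and -0.20 without PS2APP;Trem2wt replicate 2. It was -0.17 without PS2APP;Trem2wt replicate 7 and -0.17 without PS2APP;Trem2ko replicate 1. PS2APP;Trem2wt replicates 2 and 7 are the males of that genotype. In females only, a fit that leaves out all males, the median was -0.23. Values were below 0 for 33 members, where 49.3% of all genes tested were below 0. By edgeR's quasi-likelihood test with Benjamini-Hochberg adjustment, 1 member fell (Atad2) and 0 rose, against 1.53% of all genes tested called lower and 0.503% called higher. With p unadjusted and 0.05 or less, 6 members were lower (Mcm5, Tyms, Uhrf1, Atad2, Clspn and E2f1; background 7.56%) and 1 was higher (Rpa1; background 7.29%). Normalized values did not overlap between genotypes for 2 members, Mcm5 and Atad2, both lower (background 1.22%), and for 0 members higher (background 0.421%). As shares of the 47 members, these counts are 70.2% below 0, 2.13% called lower, 12.8% lower and 2.13% higher before adjustment, and 4.26% without overlap. Members share the same mice and are not independent of each other. In bulk RNA, fewer cells in S phase and less of these transcripts per cell cannot be told apart.

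**Figure D1:**
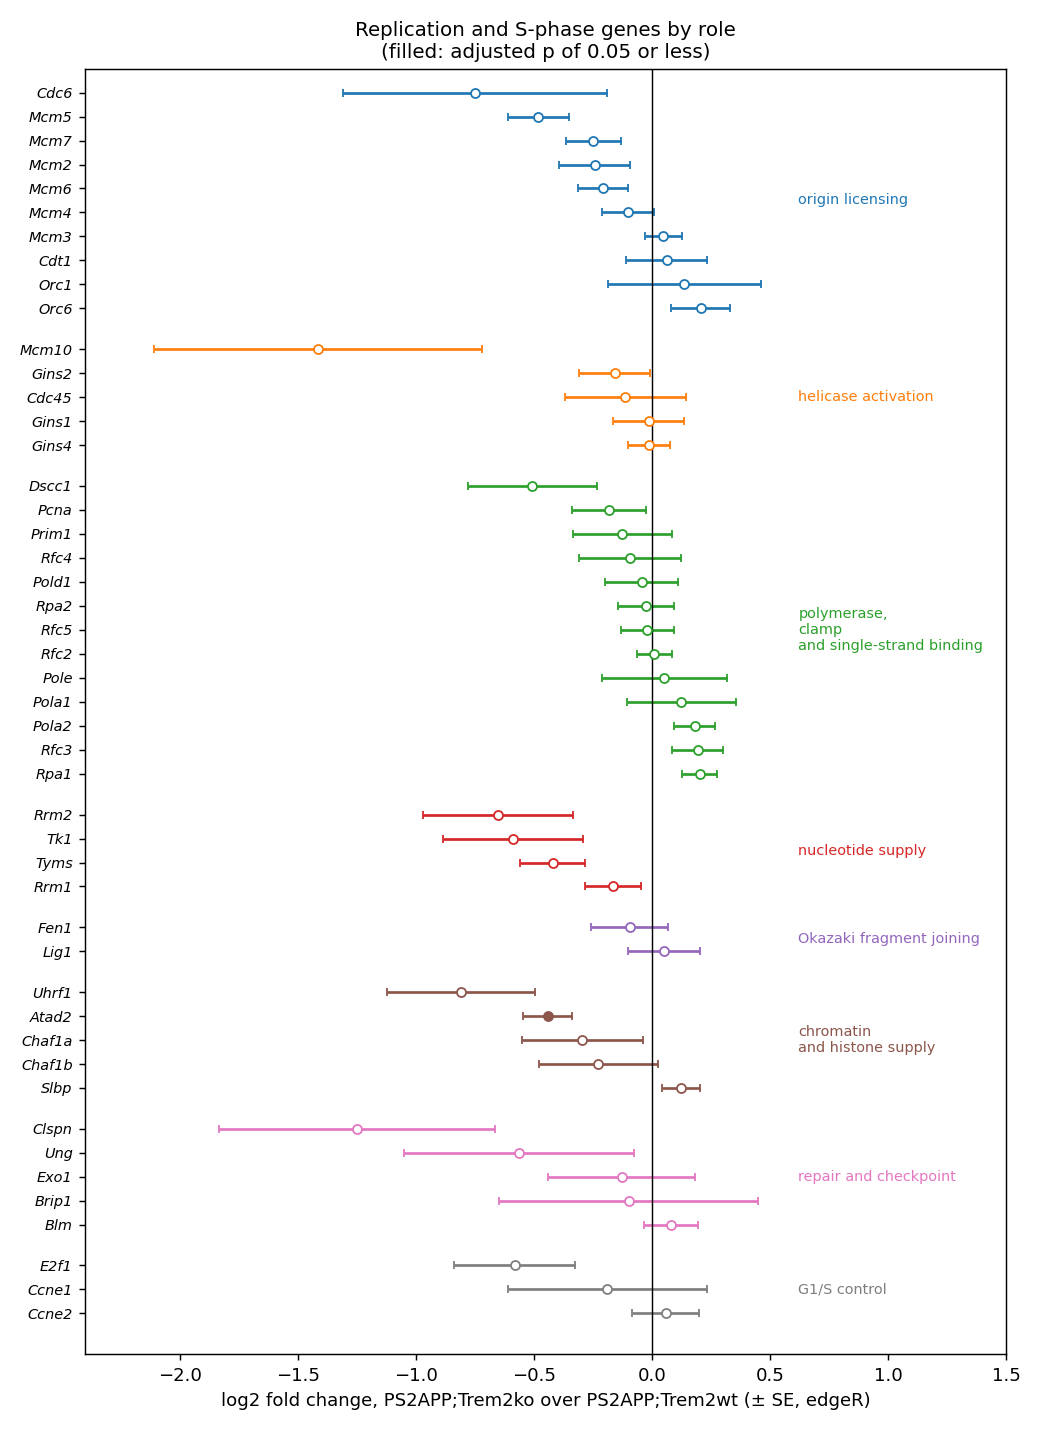
Log2 fold change of each of the 47 members (horizontal axis, points with SE bars from edgeR) in blocks by role, with 33 points left of 0. The filled point is Atad2, the 1 member past an adjusted p of 0.05, and the 2 members past 2-fold, Mcm10 and Clspn, have the widest bars.

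Among genes of chromatin and histone supply, 4 of 5 members were below 0 with a median of -0.29. Atad2, an ATPase with a bromodomain that binds acetylated histones on newly made chromatin (ENSMUSG00000022360, chr15:58094044-58135082, minus strand), had a lowest, median and highest level of 2.68, 3.22 and 3.94 nRPKM in PS2APP;Trem2wt mice and of 1.91, 2.52 and 2.66 in PS2APP;Trem2ko mice. All 6 PS2APP;Trem2ko mice lay below all 7 PS2APP;Trem2wt mice, with a narrow gap between 2.66 and 2.68. The means were 3.25 ± 0.443 (SD, n = 7) and 2.40 ± 0.287 (SD, n = 6), and Atad2 fell by 0.44 on the log2 scale (SE 0.10, edgeR adjusted p = 0.039). The call was narrow: over 9 other settings the adjusted p ranged from 0.00356 to 0.0698 and the call held in 5, and it held in 2 of 13 fits that left out a mouse, those without PS2APP;Trem2wt replicate 1 or replicate 7. Without any one of the other 11 mice the adjusted p lay between 0.0571 and 0.0921.

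Uhrf1, which recruits the maintenance DNA methyltransferase to replicated DNA, was at 0.361, 0.453 and 0.673 nRPKM (lowest, median, highest) in PS2APP;Trem2wt mice and at 0.0725, 0.298 and 0.490 in PS2APP;Trem2ko mice. In 5 of 6 PS2APP;Trem2ko mice the level lay below every PS2APP;Trem2wt mouse, and the remaining mouse overlapped them. The log2 fold change was -0.81 (SE 0.31, edgeR adjusted p = 0.22). Of the 50-base words of Uhrf1 transcripts, 15.4% also occur in other genes, Gm5648 and Gm15953, so its counts are less certain. Chaf1a and Chaf1b, subunits of the chaperone that deposits histones behind the fork, had log2 fold changes of -0.29 and -0.23. Slbp, which binds the stem-loop of histone messenger RNAs, was the most abundant gene of this group. It lay at 8.70, 10.4 and 11.96 nRPKM in PS2APP;Trem2wt mice and 10.6, 11.8 and 12.4 in PS2APP;Trem2ko mice. These ranges overlapped, with a log2 fold change of 0.12 (SE 0.08, edgeR adjusted p = 0.51).

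Of the 10 origin licensing genes, 6 were below 0, and the median was -0.15. Mcm5, a subunit of the MCM helicase (ENSMUSG00000005410, chr8:75109569-75128439, plus strand), was at 4.23, 4.82 and 5.88 nRPKM in PS2APP;Trem2wt mice and at 2.31, 3.84 and 4.10 in PS2APP;Trem2ko mice. Every PS2APP;Trem2ko mouse lay below every PS2APP;Trem2wt mouse. The means were 4.90 ± 0.563 (SD, n = 7) and 3.51 ± 0.710 (SD, n = 6), the log2 fold change was -0.48 (SE 0.13), and the edgeR adjusted p of 0.068 missed the threshold. With DESeq2 its adjusted p was 0.0119, the only one of the 9 other settings in which Mcm5 was called.

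The other 5 subunits of the helicase had less negative values. The log2 fold changes were -0.25 for Mcm7, -0.24 for Mcm2, -0.21 for Mcm6, -0.10 for Mcm4 and 0.05 for Mcm3, with edgeR adjusted p from 0.34 to 0.83. Mcm3, the most abundant of all members, was at 21.5, 24.3 and 28.2 nRPKM in PS2APP;Trem2wt mice and at 22.5, 25.4 and 28.7 in PS2APP;Trem2ko mice (SE of the log2 fold change 0.08). The ranges of Mcm3 overlapped almost wholly, and those of Mcm5 were apart. The difference between the 2 subunits was not tested.

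Cdc6, a loader of the helicase, was near the limit of detection, with 0 counts in PS2APP;Trem2wt replicate 4, which allows up to 0.109 CPM by a limit of 3 counts that covers counting error only. Its levels were 0, 0.118 and 0.238 nRPKM in PS2APP;Trem2wt mice and 0.0566, 0.0768 and 0.1001 in PS2APP;Trem2ko mice. The log2 fold change was -0.75 (SE 0.56, edgeR adjusted p = 0.58), within the spread of these mice. Orc6, a subunit of the origin recognition complex, had the highest log2 fold change of all members at 0.21 (SE 0.13, edgeR adjusted p = 0.47). It was at 3.02, 3.48 and 4.44 nRPKM in PS2APP;Trem2wt mice and at 3.16, 4.22 and 4.84 in PS2APP;Trem2ko mice, and the ranges overlapped. Orc1 and the licensing factor Cdt1 had values of 0.14 and 0.06.

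**Figure D2:**
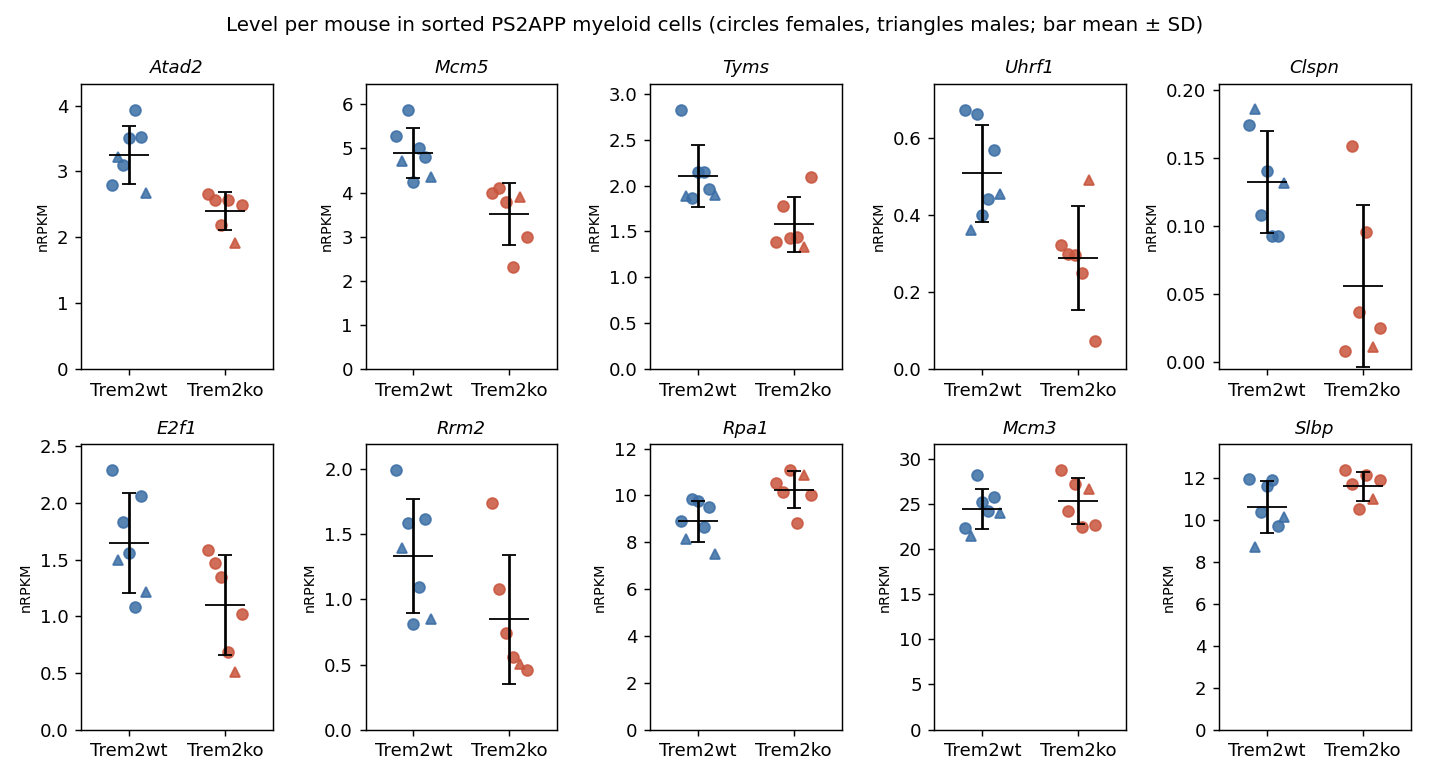
Level of 10 members in each mouse (vertical axis, nRPKM; circles females, triangles males; black marks mean ± SD) in PS2APP;Trem2wt (n = 7, blue) and PS2APP;Trem2ko (n = 6, red). Atad2 and Mcm5 do not overlap between genotypes, and the ranges of Mcm3 and Slbp overlap.

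All 4 genes of nucleotide supply were below 0, with a median log2 fold change of -0.50, and none passed the test. Tyms, which makes thymidylate, was at 1.86, 1.97 and 2.83 nRPKM in PS2APP;Trem2wt mice and at 1.33, 1.43 and 2.09 in PS2APP;Trem2ko mice. In 5 of 6 PS2APP;Trem2ko mice it lay below every PS2APP;Trem2wt mouse. Its log2 fold change was -0.42 (SE 0.14, unadjusted p = 0.0075, edgeR adjusted p = 0.15).

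Rrm2, the small subunit of ribonucleotide reductase, which makes deoxyribonucleotides and is made mainly in S phase, was at 0.811, 1.40 and 1.99 nRPKM against 0.457, 0.649 and 1.74. Of the PS2APP;Trem2ko mice, 4 of 6 lay below all PS2APP;Trem2wt mice and the highest exceeded all but 1 of them (log2 fold change -0.65, SE 0.32, edgeR adjusted p = 0.36). Rrm1, the large subunit, was more abundant at 6.69, 8.93 and 11.2 nRPKM against 5.93, 8.07 and 9.01. The groups overlapped and the log2 fold change was -0.16 (SE 0.12, edgeR adjusted p = 0.57). Tk1, which salvages thymidine, had a log2 fold change of -0.59 (SE 0.30, edgeR adjusted p = 0.38).

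All 5 genes of helicase activation were below 0, with a median log2 fold change of -0.11. Mcm10, which helps to open the activated helicase, had the most negative log2 fold change of all members at -1.41 (SE 0.69, edgeR adjusted p = 0.36). It was at 0.0210, 0.158 and 0.403 nRPKM in PS2APP;Trem2wt mice and at 0.00121, 0.0813 and 0.104 in PS2APP;Trem2ko mice, from 1 to 181 counts a library. The ranges overlapped and the values rest on few reads. Gins4, a subunit of the GINS complex, was at 13.1, 15.7 and 18.3 nRPKM against 12.5, 16.1 and 17.4. The groups of Gins4 were almost equal, with a log2 fold change of -0.012 (SE 0.09, edgeR adjusted p = 0.97). Cdc45, Gins1 and Gins2 had values of -0.11, -0.014 and -0.16.

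The 13 polymerase, clamp and single-strand binding genes were divided, with 7 below 0 and 6 above and a median of -0.020. Rpa1, the large subunit of the single-strand DNA binding protein RPA, was at 7.48, 8.91 and 9.85 nRPKM in PS2APP;Trem2wt mice and at 8.82, 10.3 and 11.1 in PS2APP;Trem2ko mice. In 5 of 6 PS2APP;Trem2ko mice it exceeded every PS2APP;Trem2wt mouse. The log2 fold change was 0.20 (SE 0.08, unadjusted p = 0.017, edgeR adjusted p = 0.21). At the other end, Dscc1, which helps to load the clamp during cohesion, was at 0.376, 0.657 and 0.909 nRPKM against 0.270, 0.409 and 0.786. These ranges overlapped (log2 fold change -0.51, SE 0.27, edgeR adjusted p = 0.41).

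Of the polymerase subunits, Pola1, Pola2 and Prim1 of the priming complex were at 0.12, 0.18 and -0.13, and the catalytic subunits Pole and Pold1 at 0.05 and -0.044. The sliding clamp Pcna was at -0.18, with 19.1% of its 50-base words found elsewhere. The clamp loader subunits Rfc2, Rfc3, Rfc4 and Rfc5 were at 0.0099, 0.19, -0.09 and -0.020, and Rpa2 was at -0.026. These 11 genes had edgeR adjusted p from 0.34 to 0.97.

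Both genes of Okazaki fragment joining were close to 0. Fen1, the flap endonuclease, was at 0.671, 0.948 and 1.17 nRPKM against 0.728, 0.830 and 1.02, and Lig1, the ligase, at 1.42, 2.12 and 2.55 against 1.41, 2.21 and 2.64. The genotypes overlapped for both genes, with log2 fold changes of -0.09 (SE 0.16, edgeR adjusted p = 0.85) and 0.05 (SE 0.15, edgeR adjusted p = 0.92). Of the words of Fen1, 76.7% also occur in other genes, Gm10143 and Tmem258, which overlap it on the opposite strand, so its counts are uncertain.

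Among repair and checkpoint genes, 4 of 5 were below 0. Clspn, which mediates the checkpoint signal at stalled forks, was at 0.0921, 0.132 and 0.186 nRPKM in PS2APP;Trem2wt mice and at 0.00781, 0.0307 and 0.159 in PS2APP;Trem2ko mice. Of the PS2APP;Trem2ko mice, 4 of 6 lay below all PS2APP;Trem2wt mice, and the other 2 overlapped them. The log2 fold change was -1.25 (SE 0.59, unadjusted p = 0.049, edgeR adjusted p = 0.33). With voom+limma it was -2.30 with an adjusted p of 0.040, so the size and the call depended on the tool at these 7 to 107 counts a library.

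Blm, a helicase that resolves recombination structures, was at 1.02, 1.17 and 1.31 nRPKM against 0.939, 1.26 and 1.46. Its groups overlapped, with a log2 fold change of 0.08 (SE 0.11, edgeR adjusted p = 0.80). Ung, which removes uracil from DNA, Exo1, an exonuclease, and Brip1, a helicase, lay between 0.0142 and 0.392 nRPKM in all mice, with log2 fold changes of -0.56, -0.13 and -0.10 and SE from 0.31 to 0.55.

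Of the 3 genes of G1/S control, E2f1, the transcription factor that drives entry into S phase, was at 1.08, 1.56 and 2.29 nRPKM in PS2APP;Trem2wt mice and at 0.509, 1.18 and 1.59 in PS2APP;Trem2ko mice. Of the latter, 3 of 6 lay below all PS2APP;Trem2wt mice and the others overlapped. The log2 fold change was -0.58 (SE 0.26, unadjusted p = 0.038, edgeR adjusted p = 0.30). Cyclin E genes gave -0.19 (SE 0.42) for Ccne1 and 0.06 (SE 0.14, edgeR adjusted p = 0.90) for Ccne2. Ccne2 was at 1.12, 1.54 and 1.75 nRPKM against 1.28, 1.45 and 2.08, and its ranges overlapped.

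**Figure D3:**
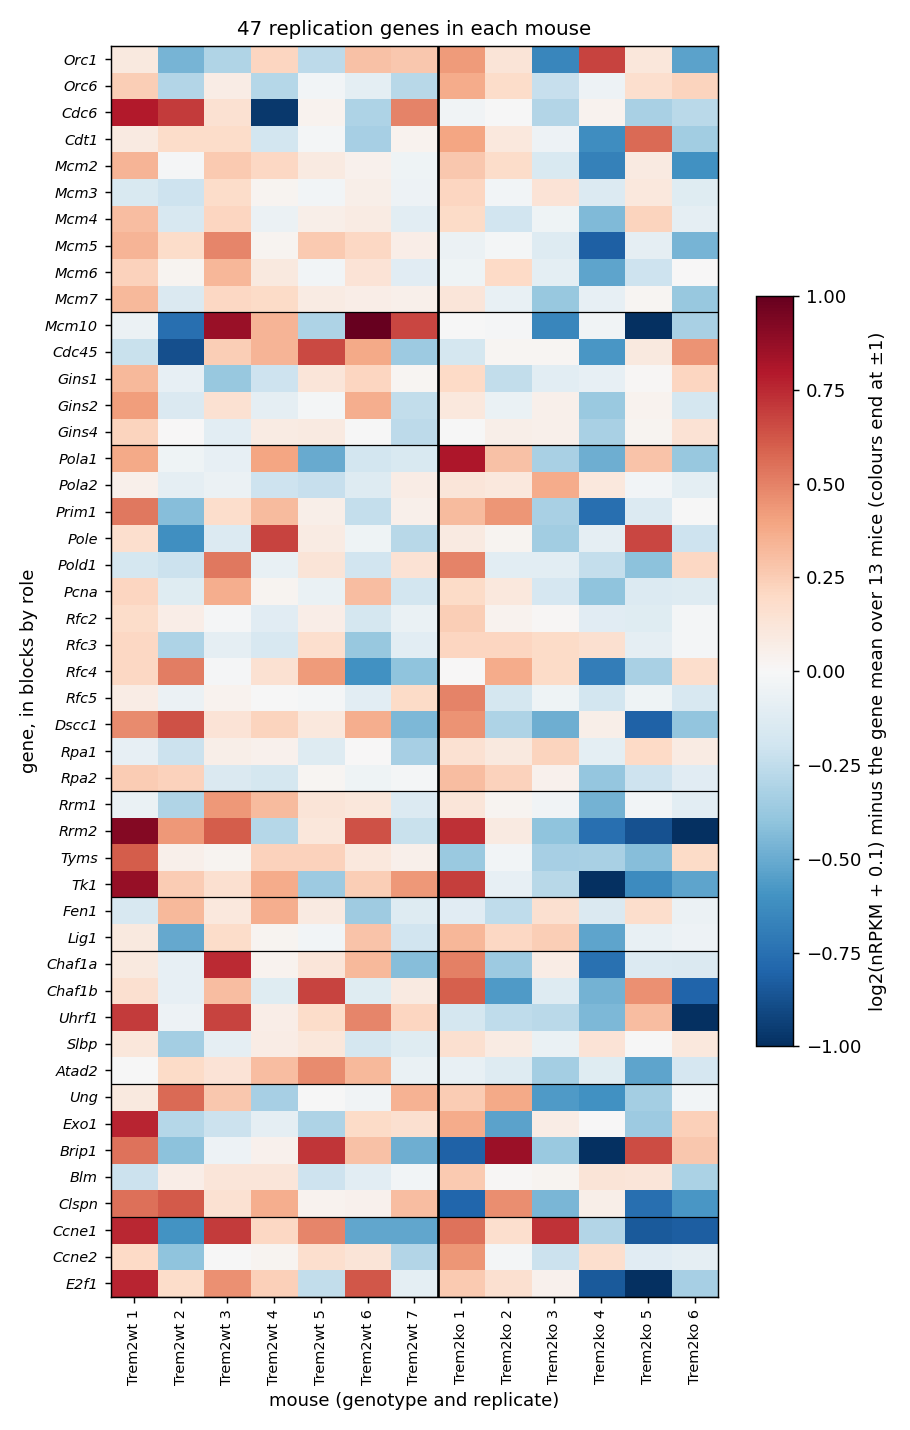
Deviation of log2(nRPKM + 0.1) from the gene's mean over 13 mice (colour, blue below and red above, ends at ±1) for 47 members (rows, in blocks by role) in each mouse (columns). PS2APP;Trem2ko replicate 4 is blue over much of its column, and PS2APP;Trem2ko replicate 1 is mostly red.

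The median deviation of the 47 members from their gene means was lowest, at -0.31, in PS2APP;Trem2ko replicate 4, the mouse with the lowest level of 18 members. PS2APP;Trem2wt replicate 1 had the highest median deviation, 0.20, and the highest level of 15 members, and PS2APP;Trem2ko replicate 1 followed at 0.19 with the highest level of 10. The genotypes overlapped. In PS2APP;Trem2wt mice the median deviation ran from -0.08 to 0.20 (mean 0.0600 ± 0.1002, SD, n = 7) and in PS2APP;Trem2ko mice from -0.31 to 0.19 (mean -0.0610 ± 0.170, SD, n = 6). The PS2APP;Trem2wt males, replicates 2 and 7, were at -0.08 and -0.05, and the females of that genotype ran from 0.06 to 0.20. The PS2APP;Trem2ko male, replicate 5, was at -0.07, within the range of the females of its genotype. A difference by sex was not tested. The neutrophil marker genes were highest in PS2APP;Trem2wt replicate 2, at 265 nRPKM in sum, where the members' median deviation was -0.08. Their part in the members' values was not tested.

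**Figure D4:**
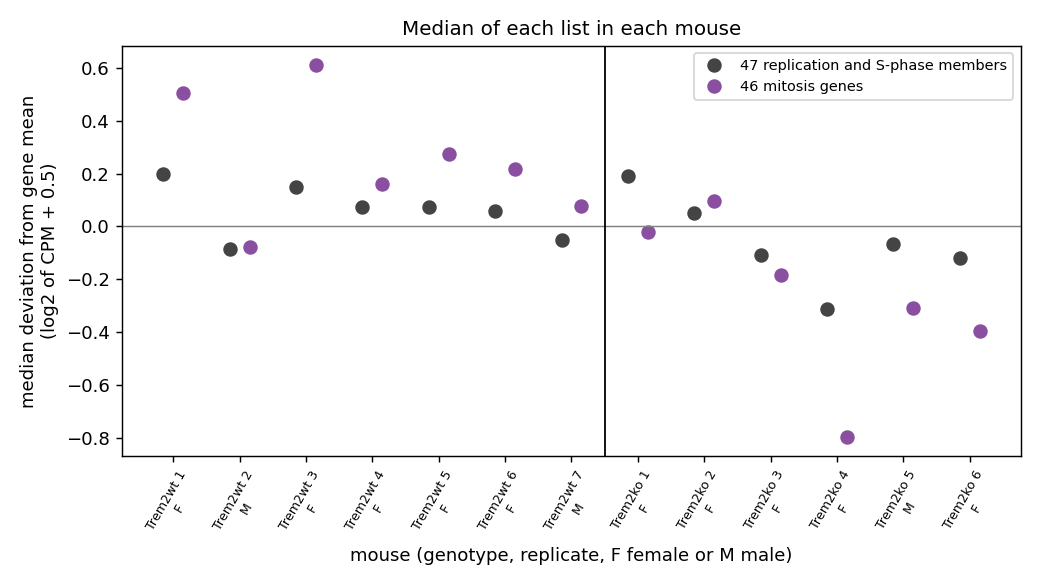
Median deviation of the 47 members (black) and of 46 mitosis genes (purple) from their gene means in each of 13 mice (vertical axis, log2 of CPM + 0.5). For the members, PS2APP;Trem2ko replicate 1 reaches 0.19 among the highest PS2APP;Trem2wt mice, and PS2APP;Trem2ko replicate 4 lies lowest for both lists.

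The members were set beside a list of 58 further replication genes and a list of 46 mitosis genes. The further replication genes had a median of -0.017, with 31 below 0 and 0 called by edgeR at an adjusted p of 0.05. Before adjustment, 4 were lower and 4 higher at a p within 0.05. Each count is 6.9% of the list, near the 7.56% lower and 7.29% higher among all genes tested. The 3 with the smallest p were Pold3, a polymerase delta subunit (log2 fold change 0.24, adjusted p = 0.061), Cdca7, a chromatin factor of dividing cells (-0.42, adjusted p = 0.12), and Dbf4, the activator of the S-phase kinase Cdc7 (0.32, adjusted p = 0.19). The mitosis genes were below 0 for 46 of 46, with a median of -0.58, 22 at an unadjusted p of 0.05 or less, and 2 called by edgeR. These 2 counts are 47.8% and 4.35% of the list, against 7.56% and 1.53% of all genes tested that were lower by the same limits. Cenpa, the centromeric histone variant, fell by 0.69 (adjusted p = 0.013) and Aspm, a spindle pole protein, fell by 1.34 (adjusted p = 0.039) on the log2 scale. The call of Cenpa held in 13 of 13 fits that left out a mouse and in 8 of 9 other settings. That of Aspm held in 2 of 13, those without PS2APP;Trem2ko replicate 2 or PS2APP;Trem2wt replicate 6, and in 5 of 9. The members' median of -0.11 lay between those of the other two lists. The difference between the lists was not tested.

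The members were also split by level, with no test of the difference. The 23 members below the median level of 1.83 nRPKM had a median log2 fold change of -0.19 with 18 below 0, and the 24 members at or above it had a median of -0.023 with 15 below 0, although Mcm5 and Atad2 are among them. All genes tested in the same ranges of level had medians of 0.027 and -0.0037. Of the mitosis genes, 44 lay below 1.83 nRPKM, with a median of -0.58, more negative than that of members in the same range.

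**Figure D5:**
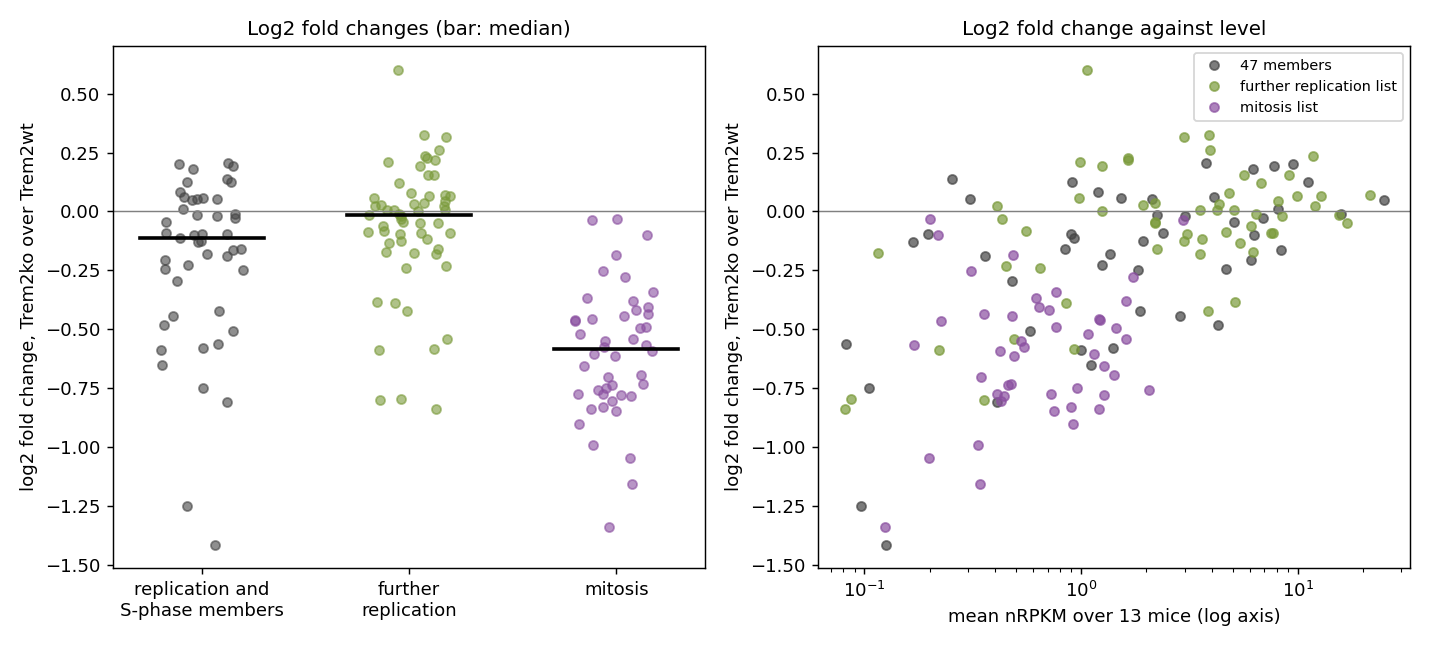
Left, log2 fold change of each gene (points) and the median (bar) for 47 members, 58 further replication genes and 46 mitosis genes, with medians of -0.11, -0.017 and -0.58. Right, the same values against mean nRPKM over 13 mice on a log axis, where the 12 members at or above 5 nRPKM lie between -0.21 and 0.20.

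Reads of 9 members (Ccne2, Chaf1a, Fen1, Gins2, Mcm7, Pcna, Rfc2, Rfc5 and Uhrf1) were taken as uncertain because of a copy or an overlapping gene. The limit was over 10% of 50-base words shared or over 50% of exon bases overlapping. Some other members shared fewer words, up to 9.14% for Rfc4, and were kept. When the 9 uncertain members were left out, 26 of 38 were below 0 and the median was -0.11.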

How the data were processed

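RNA from sorted brain myeloid cells was sequenced in 13 mice (SMART-seq v4, an unstranded kit), 7 PS2APP;Trem2wt and 6 PS2APP;Trem2ko. The authors discarded adapters, low-quality and rRNA reads, aligned to GRCm38 with GSNAP (version not given in the sources used here) and counted uniquely aligned reads per gene. The strand setting is not given in the sources used here. The authors deposited raw counts per gene and nRPKM values, an RPKM adjusted by a size factor. Total counts per mouse gave the depth. Shallow libraries are less precise for members below 1 nRPKM. The detection limit of 3 counts covers counting error only, while standard errors include the spread between mice.

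Deposited counts were filtered with filterByExpr, which kept 17086 genes, scaled by TMM and tested with edgeR 4.0.16 (glmQLFit, glmQLFTest) in R 4.3.3, with Benjamini-Hochberg adjustment over all genes tested and no covariate. The study's methods name voom+limma, an alternative here. The standard error is the log2 fold change divided by the square root of F. Deposited RPKM values were used for levels. Median deviations per mouse used log2(CPM + 0.5), and overlap between genotypes was judged on TMM-scaled CPM. Names came from GENCODE M21 for 52489 identifiers, and shared reads were estimated from words of 50 bases. Animals are described as mostly handled in genotype pairs, but the labels give no pairing.

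Members and lists were chosen with earlier results of these data known. Genes named in full are members with an adjusted or unadjusted p of 0.05 or less, those whose values do not overlap, and, in each role, the members with the lowest and highest log2 fold change and the highest nRPKM. From the other lists they are genes called, or the 3 with the smallest p. Other tools tried were DESeq2 1.42.0, voom with limma 3.58.1, and limma on nRPKM in log2 with 0.1 or 1 added. Other choices were RLE factors, a minimum of 10 counts in 6 mice or none, a sex term, a fit to females alone, and the removal of each mouse. Leaving out members with shared reads was added after the data were seen. 1 marker gene is not reported here.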

Additional observations from a re-analysis of the deposited data

Results flagged for a closer look

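Dixon's gap test was applied to each of the 47 members in both genotypes, 94 groups in all, and 6 groups held a mouse far from the rest. Chance alone marks about 1 in 20 groups. Gins4 was lowest in PS2APP;Trem2ko replicate 4 at 12.5 nRPKM, against 15.6 to 17.4 in the other mice of that genotype. Pole was highest in PS2APP;Trem2ko replicate 5 at 0.526 nRPKM, against 0.209 to 0.319. Rfc5 was highest in PS2APP;Trem2ko replicate 1 at 4.24 nRPKM, against 2.60 to 2.89. Pold1 was highest in PS2APP;Trem2wt replicate 3 at 7.22 nRPKM, against 4.28 to 5.51. Tyms at 2.83 and Exo1 at 0.341 nRPKM were both highest in PS2APP;Trem2wt replicate 1, against 1.86 to 2.15 and 0.110 to 0.197 in the other mice.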

How the results depend on the processing

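The number of members called lower, 1 by edgeR, was 2 with DESeq2 and 0 with females only, with limma on log2(nRPKM + 0.1) and with no filter, and it ran from 0 to 1 when each mouse was left out. With voom+limma the 1 member called was Clspn in place of Atad2. Over all genes, 348 were called by edgeR and 851 by DESeq2. No setting called a member higher. Members below 0 numbered 28 to 37 when each mouse was left out, and their median then ran from -0.20 to -0.066. It was below 0 in the other settings too, from -0.23 with females only to -0.04 on log2(nRPKM + 1). The median of the mitosis genes was -0.22 on log2(nRPKM + 1), a pseudocount that shrinks the change of low genes. Values near 0 changed sign, none past the test in any fit. With females only, Ccne2 was -0.032, Lig1 -0.046 and Mcm3 -0.0057, and Gins4 was 0.011 with voom+limma. When each mouse was left out, Ccne2 ran from -0.039 to 0.11, Lig1 from -0.022 to 0.15 and Gins4 from -0.056 to 0.044. Depth limits members such as Cdc6, Mcm10 and Clspn, with few reads per library. No paired analysis was possible because the labels give no pairing.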
